A study of Arabidopsis thaliana with 24 samples.

Results

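Arabidopsis seedlings that had been exposed to the peptide flg22 for 3 h were compared with seedlings exposed for 30 min. The comparison used 12 of the 24 arrays of the series, chosen by their labels as all arrays of flg22-treated seedlings. At 3 h there were 3 arrays of mpk11, a single T-DNA insertion line (SALK049352) in the Col background, and 3 of the wild type Col, both with 1 µM flg22. At 30 min the same 2 genotypes and the same dose gave 3 arrays each. The remaining 12 arrays were mock (water) treatments of both genotypes at both times, and their levels are given only beside the flg22 values. All seedlings were 10 days old, had been grown on MS medium and had stood in fresh liquid medium for 48 h before treatment, and RNA came from their leaves. Each array of 3 h was set against the array of 30 min of the same genotype and set number, which gave 6 differences for each probe. The labels do not say whether the numbered sets were separate experiments. The p-values rest on the spread among arrays within each group, estimated over all 24 arrays with mock included. That spread may therefore be technical.

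The flagellin fragment flg22 is bound at the cell surface by the receptor kinase FLS2, which signals through calcium influx, a burst of reactive oxygen and cascades of MAP kinases, MPK11 among them. Transcription factors and calcium sensors are typical early targets of this signal in leaves, while secreted hydrolases, peroxidases and enzymes of tryptophan and glucosinolate metabolism belong to the output by which plants defend themselves against bacteria. Since mock is not subtracted, a difference between 3 h and 30 min in treated leaves also holds any change that leaves without flg22 undergo over the same hours.

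The array held 576 probes, of which 181 had a gene name in the platform annotation, and 395 are unnamed here. None of the 31 marker genes listed for leaf mesophyll, root, guard cell, epidermis and vasculature was among the named genes (0 of 31), so the labelled tissue could not be checked. MPK11 was not among them either, so the genotype labels could not be checked by its transcript. In RNA from whole leaves, fewer cells of a type and less RNA per cell cannot be told apart. Levels are the deposited log values, taken as log2, and distances from mock given below are differences of mean levels, without a test. The median level of an array lay between 4.02 and 4.09 with flg22 at 3 h and between 4.04 and 4.17 with flg22 at 30 min. In mock it lay between 3.34 and 3.63 at 3 h and between 3.53 and 3.76 at 30 min. Distances from mock were not corrected for these lower medians, so a treated level equal to mock stands lower relative to its array's median. The number of arrays limits the precision, and the median half-width of a 95% interval for the change with flg22 was 0.27.

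Between the times, 305 of 576 probes (53.0%) changed in flg22-treated leaves. In limma, with a Benjamini-Hochberg adjusted p below 0.05, 151 probes (26.2%) were higher at 3 h and 154 (26.7%) were lower. Among the 181 named genes, 44 rose and 47 fell. A change of at least 1 log2 unit was found for 65 of the higher and 71 of the lower probes. All 6 differences had the same sign for 133 of the higher and 145 of the lower probes, while 27 of the 305 probes that passed had at least 1 difference against the direction. The 6 arrays of 3 h lay entirely above the 6 arrays of 30 min for 101 probes (17.5%) and entirely below them for 111 (19.3%). The median change of all probes was -0.01. The split of the calls shifted most with arrays centred on 7 translation, tubulin and histone genes, to 206 higher against 88 lower. This centring moved the median of all probes up by 0.28, against 0.06 for median centring and 0.01 for quantile normalization. The lists that the 7 genes came from had median changes of -0.29 (translation) and -0.37 (tubulin, histone and microtubule genes). The reference was thus itself lower at 3 h on the deposited scale.

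The largest rises among named genes were those of proteins that plants secrete against microbes. AT2G43620, a member of the chitinase family, had levels of 8.87, 9.07 and 9.19 with flg22 at 3 h (lowest, median and highest of 6 arrays), against 4.46, 4.72 and 5.05 at 30 min. In mock it had 2.91, 3.18 and 3.98 at 3 h and 2.75, 3.07 and 3.51 at 30 min. Its change was 4.30 (SE 0.14; limma adjusted p = 1.64e-16), and the 6 single differences ran only between 4.04 and 4.50. The treated groups lay far apart, and both lay above all mock arrays of the same time. A second member of the chitinase family, AT4G01700, had 7.29, 7.45 and 7.52 at 3 h, against 4.54, 4.59 and 4.69 at 30 min, a change of 2.81 (SE 0.11; limma adjusted p = 1.02e-15). AT2G38870, a small inhibitor of proteinases, had 9.38, 9.49 and 9.80 at 3 h, against 5.91, 6.02 and 6.66 at 30 min, a change of 3.40 (SE 0.13; limma adjusted p = 8.43e-16). In none of these 3 genes did the treated groups overlap.

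Of the 6 measured chitinases, defensins and proteinase inhibitors, 4 rose and none fell (median change 1.64), beside 26.2% and 26.7% of all probes. The group was put together with these results known, so its count describes it and supports nothing further. The fourth member that rose was CHI, a chitinase, by 0.47 (SE 0.15; limma adjusted p = 0.0136). Its treated groups overlapped, and it no longer passed without set 1 (0.45, limma adjusted p = 0.124) or without set 2 (0.28, limma adjusted p = 0.114). PDF1.2, a plant defensin known as a target of jasmonate and ethylene, had a change of 0.13 (SE 0.27), and the defensin-like AT3G59930 one of -0.04 (SE 0.26), neither of which passed.

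**Figure D1:**
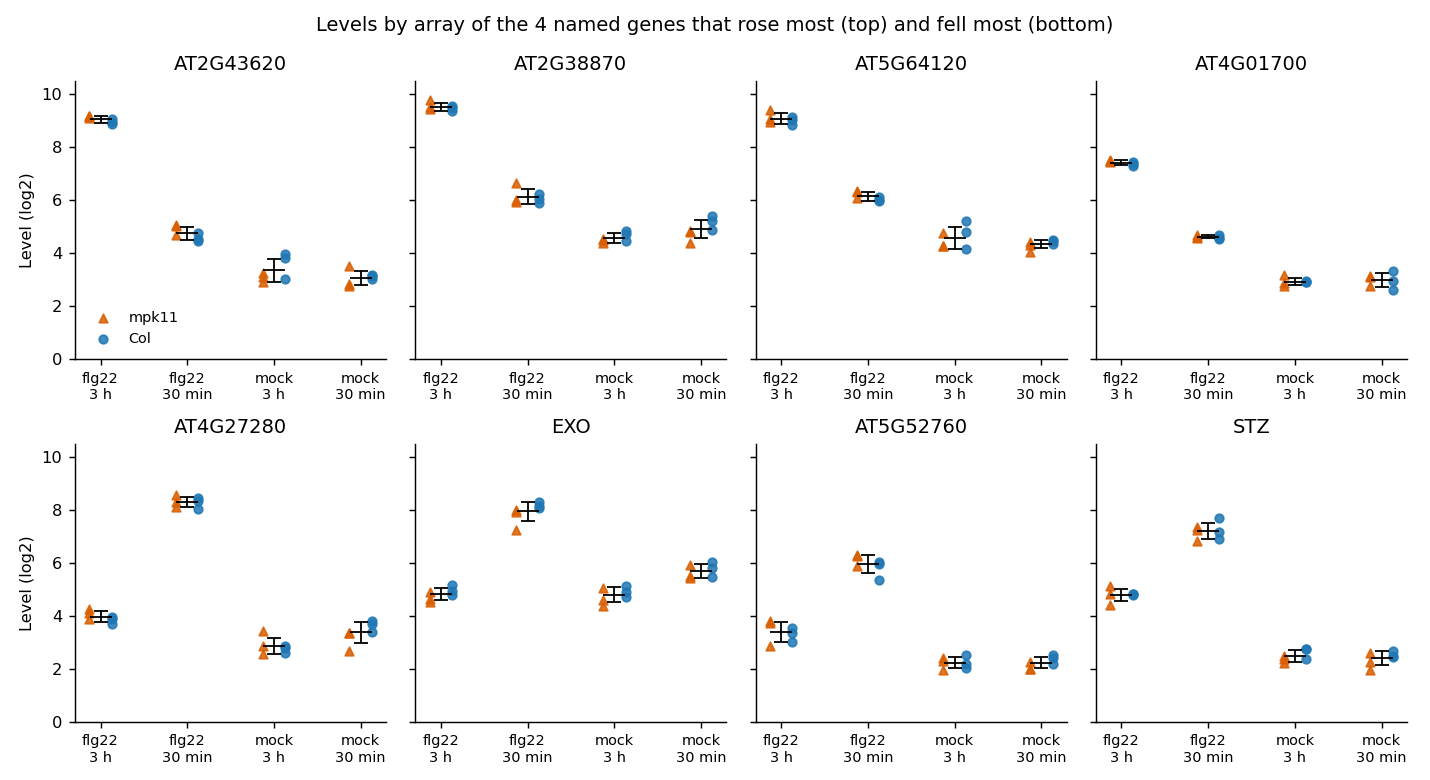
Level (log2) on each of the 24 arrays of the 4 named genes that rose most (top row) and the 4 that fell most (bottom row), with mpk11 as triangles, Col as circles, and bars for the mean and SD of the 6 arrays of a treatment and time. In every panel the arrays of flg22 at 3 h and at 30 min do not overlap, while EXO at 3 h with flg22 overlaps mock at 3 h.

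Class III peroxidases, which use hydrogen peroxide in the cell wall, moved in different ways. AT5G64120 had 8.85, 9.05 and 9.42 with flg22 at 3 h, against 5.96, 6.10 and 6.36 at 30 min, and 4.17, 4.52 and 5.22 in mock at 3 h. It rose by 2.94 (SE 0.14; limma adjusted p = 4.93e-14). AT5G19890 was more variable, with 4.85, 5.18 and 5.86 at 3 h against 2.97, 3.58 and 4.46 at 30 min, and its single differences ran from 0.71 to 2.89. It rose by 1.57 (SE 0.28; limma adjusted p = 4.35e-05) without overlap of the groups. The third peroxidase, AT2G37130, had a change of 0.18 (SE 0.14), which did not pass. In mock the same gene was higher at 3 h by 0.81 (limma adjusted p = 0.00023), and its change with flg22 was smaller than that in mock by 0.63 (SE 0.20; limma adjusted p = 0.015). That difference no longer passed without set 2 (limma adjusted p = 0.0502) or set 3 (limma adjusted p = 0.166).

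Among 9 oxidoreductases, enzymes of redox and small-molecule chemistry, 6 rose, none fell and 3 did not pass (median 0.76), beside 26.2% and 26.7% of all probes. AT1G26380, an FAD-linked oxidoreductase that takes part in the synthesis of indolic defence compounds, had 6.07, 6.32 and 6.75 at 3 h, against 3.78, 4.08 and 4.28 at 30 min, a change of 2.33 (SE 0.12; limma adjusted p = 3.18e-13). Its mock levels stayed between 1.51 and 2.20 at both times, so that treated arrays were above all mock arrays from 30 min on. AT4G38540, a monooxygenase, rose by 1.51 (SE 0.17) and AT4G39830, an ascorbate oxidase, by 1.33 (SE 0.10). AT2G36690, an oxygenase that depends on iron and oxoglutarate, had 6.07, 6.49 and 6.75 at 3 h, against 5.38, 5.60 and 5.81 at 30 min, and rose by 0.84 (SE 0.11; limma adjusted p = 4.68e-07). It was already well above mock at 30 min (by 2.69), and by 3.38 at 3 h. The other two that rose were CTF2B, a monooxygenase, by 0.76 (SE 0.22) and AT1G64710, a member of the alcohol dehydrogenase family, by 0.25 (SE 0.10). CTF2B did not pass without set 1 (limma adjusted p = 0.134), nor AT1G64710 in 14 of the alternatives, for example without set 3 (limma adjusted p = 0.239). Of the 3 that did not pass, AT2G34810 was the nearest to the threshold, with a change of -0.28 (SE 0.12; limma adjusted p = 0.0513), and it passed as lower in 14 of the alternatives.

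A gene of tryptophan synthesis and one of glucosinolate synthesis rose, while the gene of a glucosinolate transporter fell. AT2G04400, the indole-3-glycerol phosphate synthase of tryptophan synthesis, had 6.82, 6.95 and 7.19 with flg22 at 3 h, against 4.12, 4.29 and 4.56 at 30 min. In mock it had 3.96, 4.08 and 4.16 at 3 h and 3.93, 4.21 and 4.59 at 30 min. It rose by 2.69 (SE 0.11; limma adjusted p = 4.48e-15). Treated and mock arrays overlapped at 30 min (mean difference 0.03) and were apart at 3 h (2.92). UGT74B1, which attaches the glucose in glucosinolate synthesis, had the same course, with 5.24, 5.74 and 5.91 at 3 h against 3.90, 4.03 and 4.15 at 30 min, and it rose by 1.59 (SE 0.13; limma adjusted p = 2.18e-10).

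GTR1, an importer of glucosinolates, went the other way. It had 1.74, 1.99 and 2.31 with flg22 at 3 h, against 3.47, 3.77 and 3.92 at 30 min, and fell by 1.71 on the log2 scale (SE 0.13; limma adjusted p = 2.14e-10). The other 3 of the 6 measured genes of this group did not pass. These were the ATP sulfurylase APS3, the sulfite reductase SIR and the dioxygenase gene AT2G25450, with changes between -0.33 and 0.06. In the group 2 rose and 1 fell (median 0.02), beside 26.2% and 26.7% of all probes. APS3 passed as lower in the fit with only the flg22 arrays (limma adjusted p = 0.0236). Among UDP-glycosyltransferases, which attach sugars to hormones and defence compounds, 4 of 7 rose and 1 fell (median 0.45), beside 26.2% and 26.7% of all probes, and 5 rose and 0 fell with arrays centred on 7 translation, tubulin and histone genes. IAGLU, which conjugates auxin, rose by 1.13 (SE 0.10), UGT85A2 by 0.70 (SE 0.17) and UGT76B1, which acts in salicylate-linked defence, by 0.45 (SE 0.12). UGT76B1 did not pass without set 3 (limma adjusted p = 0.0695). The single member that fell was AT4G27570, by 0.29 on the log2 scale (SE 0.09), and it did not pass without set 2 (limma adjusted p = 0.0573).

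WRKY transcription factors, which bind defence gene promoters, did not move together. WRKY29, placed downstream of the flg22 MAP kinase cascade, had 5.31, 5.59 and 5.70 with flg22 at 3 h, against 3.45, 3.86 and 4.04 at 30 min, and rose by 1.74 (SE 0.11; limma adjusted p = 8.75e-12). WRKY22, named beside it in that cascade, had 4.84, 4.97 and 5.49 at 3 h, against 5.98, 6.48 and 6.58 at 30 min, and fell by 1.30 on the log2 scale (SE 0.14; limma adjusted p = 2.36e-08). WRKY53, a factor of senescence and defence, had 4.23, 4.45 and 4.60 at 3 h, against 5.42, 5.95 and 6.11 at 30 min, and fell by 1.45 on the log2 scale (SE 0.11; limma adjusted p = 1.29e-10). None of the 3 had overlapping groups, so the later arrays were uniformly higher for WRKY29 and uniformly lower for WRKY22 and WRKY53. WRKY6 had 4.17, 4.39 and 4.84 at 3 h, against 3.99, 4.22 and 4.71 at 30 min, and its change of 0.21 (SE 0.15; limma adjusted p = 0.247) did not pass. All 4 were still above mock at 3 h, by 2.56 for WRKY29, 2.42 for WRKY22, 2.34 for WRKY53 and 1.37 for WRKY6 (mean levels).

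The zinc-finger repressor STZ, also known as ZAT10, had 4.41, 4.81 and 5.14 with flg22 at 3 h, against 6.83, 7.20 and 7.70 at 30 min, and 2.23, 2.43 and 2.76 in mock at 3 h. It fell by 2.40 on the log2 scale (SE 0.15; limma adjusted p = 3.05e-12) and at 3 h was midway between its level at 30 min and mock. Of the 5 measured transcription factors outside the WRKY family it was the one that passed (0 rose, 1 fell), beside 26.2% and 26.7% of all probes. The remaining members PHV, SCL21, AT2G28510 and AT1G10585 had changes between -0.10 and 0.23.

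Of 5 measured calcium sensors, 4 fell, none rose and 1 did not pass (median -1.12, beside -0.01 for all probes), where 26.7% of all probes fell. With arrays centred on 7 translation, tubulin and histone genes 3 of them fell (median -0.83). In mock 3 of the 5 fell, where 16.5% of all probes fell. For 2 of the 5 the change with flg22 was below that in mock, as for 16.1% of all probes. AT4G27280, an EF-hand protein, had 3.69, 3.92 and 4.27 with flg22 at 3 h, against 8.03, 8.31 and 8.57 at 30 min. Its mock levels were 2.56, 2.82 and 3.42 at 3 h and 2.66, 3.37 and 3.80 at 30 min. The change of -4.33 (SE 0.15; limma adjusted p = 1.64e-16) was the largest fall of any named gene, and the single differences ran from -4.76 to -3.85. A small distance from mock was left at 3 h (1.11), against 4.92 at 30 min. AT5G39670, also with EF hands, had 2.52, 2.81 and 2.93 at 3 h, against 4.09, 4.34 and 5.18 at 30 min, and fell by 1.77 on the log2 scale (SE 0.18; limma adjusted p = 9.91e-09), to levels that overlapped mock.

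The other calcium sensors changed less, or changed by as much in mock. AT2G41090, similar to calmodulin, fell by 1.12 on the log2 scale (SE 0.14; limma adjusted p = 3.79e-07), with a mock change of -1.16 and a difference between these changes of 0.05 (SE 0.20; limma adjusted p = 0.91). AT2G41410 had a change of -0.34 (SE 0.12; limma adjusted p = 0.0198) with overlapping groups, and it no longer passed without the Col array of flg22 at 30 min of set 1 (limma adjusted p = 0.0748), without the mpk11 array of flg22 at 3 h of set 2 (limma adjusted p = 0.0652), or without set 1 or set 3 (limma adjusted p = 0.114 and 0.0742). With arrays centred on the 7 genes its change was -0.06 (limma adjusted p = 0.815). In mock AT2G41410 also changed by -0.34 (limma adjusted p = 0.0465), which did not pass without set 2, for example (limma adjusted p = 0.116). The difference between its changes with flg22 and in mock was -0.00064 (SE 0.17; limma adjusted p = 0.998). CML42 had 5.50, 5.70 and 5.81 at 3 h, against 5.73, 5.97 and 6.15 at 30 min, and its change of -0.26 (SE 0.12; limma adjusted p = 0.0884) did not pass, though it did in 5 of the alternatives. This sensor was above mock by 2.14 at 3 h and by 2.56 at 30 min, so it stood high at both times.

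Proteins with a heavy-metal-associated domain, a small fold that binds metal ions, were lower at 3 h in 2 of 3 cases (median -1.87), where 26.7% of all probes fell. AT5G52760 had 2.86, 3.44 and 3.80 with flg22 at 3 h, against 5.36, 6.01 and 6.28 at 30 min, and fell by 2.58 on the log2 scale (SE 0.16; limma adjusted p = 3.76e-12). AT5G60800 had 1.82, 1.92 and 2.13 at 3 h, against 3.27, 3.95 and 4.19 at 30 min, and fell by 1.87 on the log2 scale (SE 0.14; limma adjusted p = 4.85e-11). The groups did not overlap for either gene, and AT5G60800 overlapped mock at 3 h. The third member, AT2G36950, kept 5.09, 5.26 and 5.44 at 3 h, against 5.13, 5.25 and 5.65 at 30 min (change -0.08, SE 0.09), well above mock at both times.

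Genes of growth, lipid transfer and protein turnover completed the strong falls. EXO, EXORDIUM, which promotes growth in response to brassinosteroids, had 4.52, 4.86 and 5.16 with flg22 at 3 h, against 7.25, 8.04 and 8.28 at 30 min, and fell by 3.12 on the log2 scale (SE 0.15; limma adjusted p = 5.08e-14). It was 2.26 above mock at 30 min and 0.03 above mock at 3 h, with overlapping arrays. AT4G26400, a RING-type ubiquitin ligase, had 4.23, 4.33 and 4.60 at 3 h, against 5.99, 6.37 and 6.63 at 30 min, and fell by 1.97 on the log2 scale (SE 0.11; limma adjusted p = 1.44e-12). AT4G39670, of the glycolipid transfer protein family, had 4.08, 4.18 and 4.54 at 3 h, against 5.44, 6.24 and 6.71 at 30 min, and fell by 1.90 on the log2 scale (SE 0.14; limma adjusted p = 3.76e-11). CDI had 3.57, 3.63 and 3.76 at 3 h, against 4.98, 5.38 and 5.52 at 30 min, and fell by 1.68 on the log2 scale (SE 0.09; limma adjusted p = 1.78e-13). At 3 h all treated arrays of CDI were below all mock arrays (mean difference -0.48), while at 30 min they were all above (1.06). AT1G27100 and AT2G26190 fell by 1.55 and 1.47 on the log2 scale (SE 0.10 and 0.15).

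The named genes were also set against mock at the same time. Of all 576 probes, 31.9% had all 6 treated arrays above all 6 mock arrays at 3 h and 5.90% had them below, and at 30 min these shares were 20% and 0.694%. For the 14 named genes that fell most, all 6 treated arrays were above all 6 mock arrays in 13 genes at 30 min, and in 6 genes at 3 h, when 7 overlapped mock and CDI was below it. For the 14 that rose most, treated arrays were above mock in 8 genes at 30 min and in 13 at 3 h. These counts are descriptions, with no test of a difference between the groups of genes, since the genes were chosen by the treated levels and array medians were lower in mock.

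**Figure D2:**
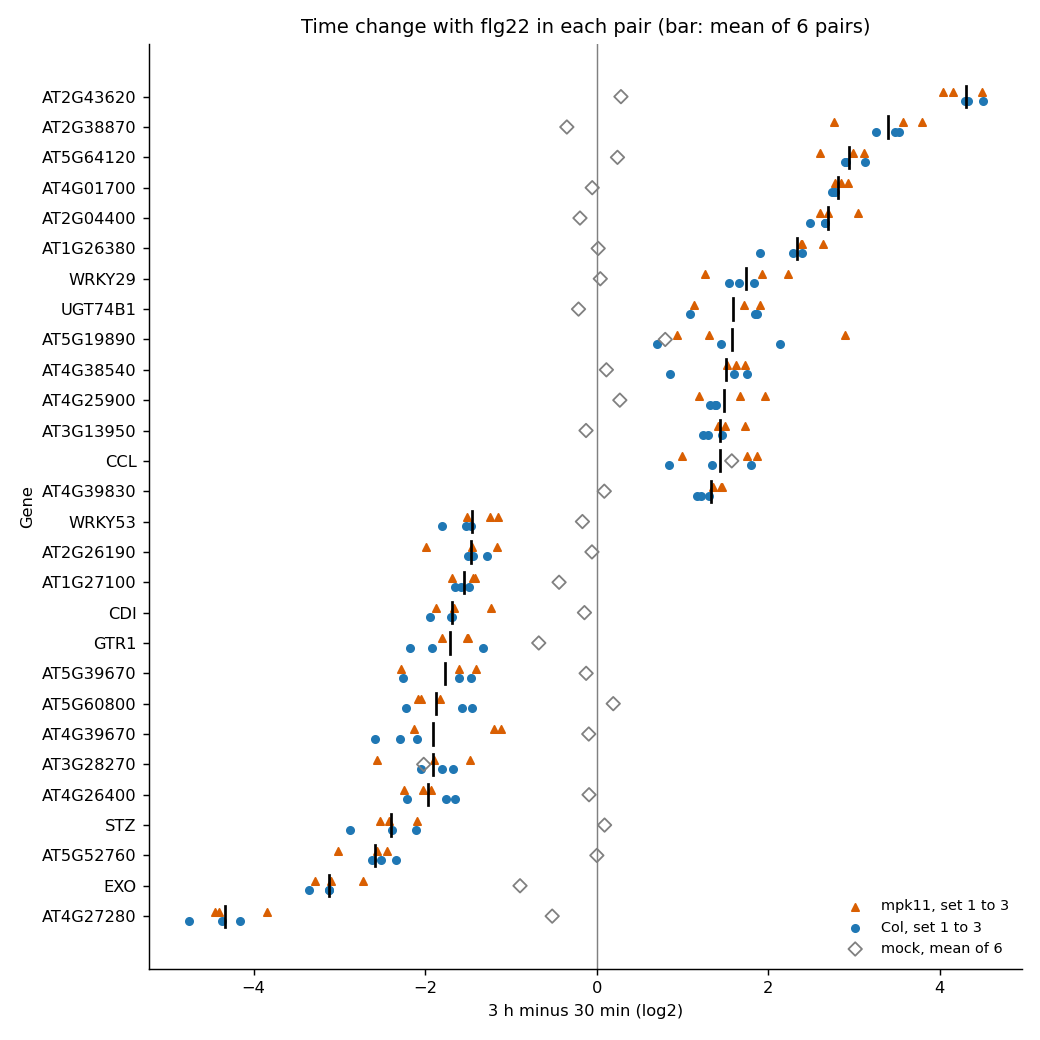
Difference of 3 h minus 30 min (log2) with flg22 in each of the 6 pairs for the 28 genes that rose or fell most, with mpk11 as triangles, Col as circles, a bar for the mean of the 6 pairs and an open diamond for the mean change in mock. All 6 pairs have the sign of the mean for every gene, since the rule that chose the genes required it. The mock diamond lies within the range of the pairs for CCL, AT3G28270 and AT5G19890.

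Time also changed the mock arrays, though fewer probes passed. In limma 23 probes (3.99%) were higher at 3 h in mock and 95 (16.5%) were lower, 20.5% in all, and the median absolute change of all probes was 0.33 with flg22 and 0.15 in mock. The split in mock depended on the scaling, with 40 higher and 57 lower when arrays were centred on their medians, 47 and 71 after quantile normalization, and 49 and 18 when centred on 7 translation, tubulin and histone genes. It also depended on set 3, without which 10 were higher and 48 lower. The treated and mock arrays share no library, though their p-values use the same estimate of the spread, and the calls are set side by side. Of the probes higher with flg22, 15 were also higher in mock (9.93% of the flg22 calls and 65.2% of the mock calls), and of those lower, 60 were also lower in mock (39% and 63.2%). Across the 576 probes the changes with flg22 and in mock had a Pearson correlation of 0.44 and a Spearman correlation of 0.34, over probes that share their arrays.

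The change with flg22 exceeded the change in mock for 124 probes (21.5%) and was below it for 93 (16.1%), together 37.7%, tested as a difference of differences in limma. After quantile normalization these numbers were 101 and 115. The difference passed in the direction of the change for 12 of the 14 named genes that rose most and 13 of the 14 that fell most. These genes were chosen by the change with flg22, which is part of the tested difference, so the counts describe them and support nothing further. Among named genes the largest differences were 4.02 for AT2G43620 (SE 0.20), 3.75 for AT2G38870 (SE 0.18) and -3.81 for AT4G27280 (SE 0.21; limma adjusted p = 1.28e-12).

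The 3 exceptions among those 28 were CCL, AT3G28270 and AT5G19890, which changed with time in mock too. They were not alone in this. AT4G27280 was lower at 3 h in mock (change -0.52, limma adjusted p = 0.013), and EXO, GTR1 and AT1G27100 also passed as lower there. None of these mock falls passed with arrays centred on 7 translation, tubulin and histone genes. CCL, a transcript with a daily rhythm, had 5.96, 6.30 and 6.62 with flg22 at 3 h, against 4.32, 4.92 and 5.27 at 30 min. In mock CCL had 5.85, 6.72 and 7.14 at 3 h, against 3.81, 5.27 and 5.70 at 30 min. Its change was 1.43 with flg22 and 1.57 in mock, and their difference of -0.14 (SE 0.35; limma adjusted p = 0.818) did not pass. AT3G28270 had 2.85, 3.42 and 3.97 with flg22 at 3 h, against 5.0, 5.34 and 5.44 at 30 min, and in mock 2.85, 3.06 and 3.81 at 3 h, against 4.83, 5.19 and 5.74 at 30 min. It fell by 1.91 on the log2 scale with flg22 and by 2.02 in mock, with a difference of 0.11 (SE 0.29; limma adjusted p = 0.831). For both genes the treated and mock arrays overlapped at each time. The peroxidase AT5G19890 changed by 0.80 in mock (limma adjusted p = 0.0455, above 0.05 without any of several single arrays, for example 0.0955 without the Col mock array at 3 h of set 1), and the difference of 0.77 (SE 0.39; limma adjusted p = 0.133) did not pass.

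**Figure D3:**
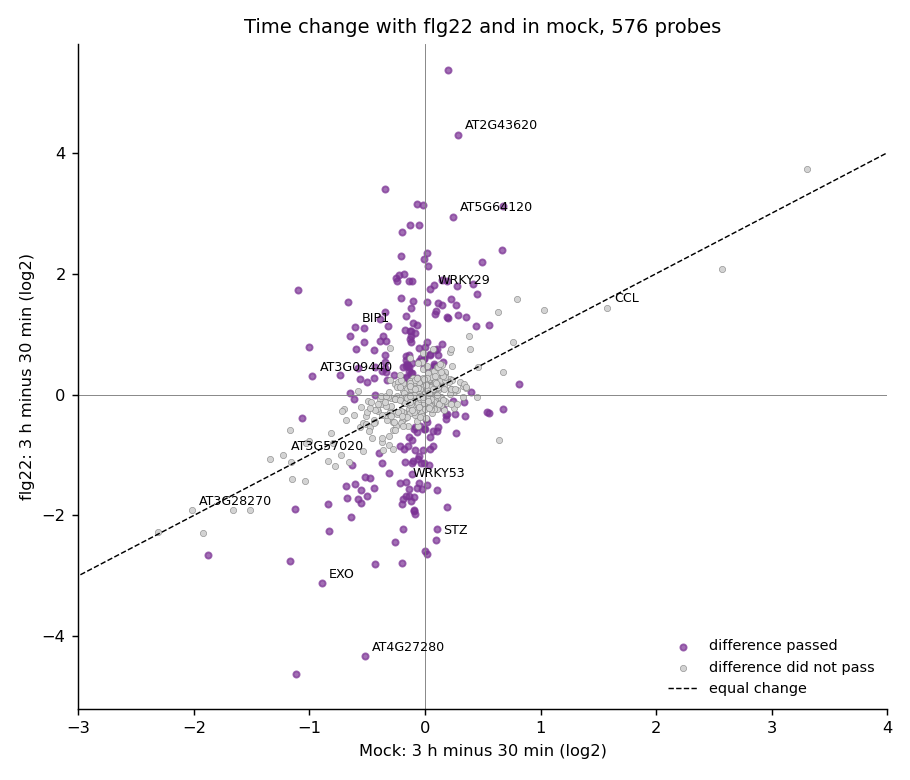
Change with time (3 h minus 30 min, log2) with flg22 (vertical) against that in mock (horizontal) for 576 probes, filled where the difference between the changes passed in limma and grey where it did not, with a dashed line of equal change. CCL and AT3G28270 lie close to the line, while AT2G43620, AT4G27280 and STZ lie near the vertical axis.

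Chaperone genes were measured with flg22 and in mock. BIP1, the HSP70 of the endoplasmic reticulum, had 6.35, 6.85 and 7.14 with flg22 at 3 h, against 5.39, 5.74 and 5.81 at 30 min, and in mock 4.61, 5.14 and 5.42 at 3 h, against 5.24, 5.71 and 6.07 at 30 min. It rose by 1.12 with flg22 (SE 0.15; limma adjusted p = 7.19e-07), its mock change was -0.61 (limma adjusted p = 0.0041), and the difference was 1.73 (SE 0.21; limma adjusted p = 3.8e-07). The mock fall of BIP1 did not pass without set 1 (limma adjusted p = 0.134). Treated and mock arrays of BIP1 overlapped at 30 min and were apart at 3 h. AT3G09440, a cytosolic HSP70, had a change of 0.31 with flg22 (SE 0.12; limma adjusted p = 0.0404) and of -0.98 in mock, with a difference of 1.28 (SE 0.17; limma adjusted p = 1.9e-06). The change with flg22 alone was not past the threshold in 12 of the alternatives, for example without the Col array of flg22 at 3 h of set 1 (limma adjusted p = 0.147). HSP70 genes are near-identical in parts, so a probe may read more than 1 of them. Hsp70-2 had a change of 0.26 (SE 0.17), which did not pass, and a difference from mock of 0.83 (SE 0.25; limma adjusted p = 0.0098), which did not pass without set 2 (limma adjusted p = 0.053) or set 3 (limma adjusted p = 0.0504).

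The small heat shock protein AT2G29500 had a change of -0.42 with flg22 (SE 0.17; limma adjusted p = 0.0413) and of -0.68 in mock, and without set 3 the change with flg22 was -0.27 (limma adjusted p = 0.37), 1 of 11 alternatives in which it did not pass. AT5G48570, a peptidyl-prolyl isomerase, had a change of -0.27 with flg22 (SE 0.19), which did not pass. Of the 5 chaperones, 2 rose and 1 fell with flg22 (median 0.26), beside 26.2% and 26.7% of all probes. In mock 0 rose and 5 fell (median -0.68), where 16.5% of all probes fell. For 3 of the 5 the change with flg22 exceeded that in mock, as for 21.5% of all probes. The mock fall of Hsp70-2 did not pass in 8 of the alternatives, for example median centring or without the Col mock array at 30 min of set 1 (limma adjusted p = 0.13 and 0.0765). Without set 3 the mock falls of AT2G29500 and AT5G48570 did not pass (limma adjusted p = 0.131 and 0.101), nor that of AT2G29500 without set 2 (limma adjusted p = 0.057). Centred on 7 translation, tubulin and histone genes, 3 rose and 0 fell with flg22. Under that scaling the mock changes of BIP1, AT2G29500, AT5G48570 and Hsp70-2 did not pass (limma adjusted p = 0.303, 0.201, 0.139 and 0.358).

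Of 8 measured membrane traffic genes, 4 rose, 1 fell and 3 did not pass (median 0.30), beside 26.2% and 26.7% of all probes, and 5 rose and 0 fell with arrays centred on 7 translation, tubulin and histone genes. AT2G34250, a subunit of the translocon of the endoplasmic reticulum, had 5.33, 5.45 and 5.61 with flg22 at 3 h, against 4.72, 4.98 and 5.18 at 30 min, and rose by 0.51 (SE 0.12; limma adjusted p = 0.000925). AT1G47830, a small subunit of a clathrin adaptor, rose by 0.48 (SE 0.11) and the endosomal GTPase ARA6 by 0.45 (SE 0.12). ARA6 did not pass without set 3 (limma adjusted p = 0.127). ATG8E of autophagy rose by 0.49 (SE 0.19; limma adjusted p = 0.0296), and it did not pass in 9 of the alternatives, for example without the mpk11 array of flg22 at 3 h of set 1 (limma adjusted p = 0.101). PRA1.B4 fell by 0.29 on the log2 scale (SE 0.09), and it did not pass without set 1 (limma adjusted p = 0.122) or set 3 (limma adjusted p = 0.127) or after quantile normalization.

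Of 4 ubiquitin ligases of the RING type 2 rose and 1 fell (median 0.29). Of 4 aspartyl proteases and of 4 kinases 1 rose and 1 fell each, that is 25% each way, close to the 26.2% and 26.7% of all probes. AT2G42360, a RING ligase, had 4.81, 4.87 and 5.30 with flg22 at 3 h, against 3.77, 3.98 and 4.17 at 30 min, and rose by 0.96 (SE 0.11; limma adjusted p = 4.93e-08). AT1G08050 rose by 0.78 (SE 0.10), AT4G26400 fell as given above, and AT3G48070 had a change of -0.21 (SE 0.10) that did not pass. The aspartyl protease AT3G51330 rose by 0.92 (SE 0.10; limma adjusted p = 6.37e-08), and its treated arrays overlapped mock at 30 min and were above it at 3 h. AT2G39710, of the same family, had a change of -0.44 (SE 0.14) that did not pass without set 1 (limma adjusted p = 0.0818) or set 3 (limma adjusted p = 0.123). With arrays centred on 7 translation, tubulin and histone genes its change was -0.15 (limma adjusted p = 0.581), and 0 aspartyl proteases fell. Among the kinases, AT1G11050 fell by 0.89 on the log2 scale (SE 0.13; limma adjusted p = 2.09e-06) and AT3G09010 rose by 0.41 (SE 0.10), which did not pass without set 3 (limma adjusted p = 0.0702).

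Genes of the cell wall, of hormones and of the plastid were measured too, and EXO, CCL, IAGLU and UGT76B1 among them are described elsewhere. The pectin methylesterase gene ATPMEPCRB rose by 0.38 (SE 0.10; without set 3, limma adjusted p = 0.0749), and the cellulase gene GH9C1 had a change of 0.00 (SE 0.09). GRX480, a glutaredoxin linked to salicylate, had 2.54, 2.67 and 2.78 with flg22 at 3 h, against 2.91, 3.28 and 3.55 at 30 min, and fell by 0.62 on the log2 scale (SE 0.10; limma adjusted p = 9.15e-06). RAP, which acts in the maturation of plastid ribosomal RNA, had 2.81, 2.94 and 3.08 at 3 h, against 3.23, 3.52 and 3.84 at 30 min. It fell by 0.61 on the log2 scale (SE 0.12; limma adjusted p = 0.000127), with a difference from the mock change of -0.71 (SE 0.17). Neither GRX480 nor RAP passed with arrays centred on 7 translation, tubulin and histone genes (limma adjusted p = 0.0902 and 0.218). FATB, a thioesterase of fatty acid synthesis, had a change of -0.42 (SE 0.12), which did not pass without set 1 (limma adjusted p = 0.0708). Its mock change was -0.33, which did not pass, though it did in 8 of the alternatives. LHCB4.3 of the light-harvesting antenna had a change of -0.47 (SE 0.15) beside -0.54 in mock, and it did not pass without set 2, without set 3 or without the Col array of flg22 at 30 min of set 3 (limma adjusted p = 0.117, 0.0639 and 0.0513). Of 5 clock and plastid genes 1 rose (CCL) and these 3 fell (median -0.42), beside 26.2% and 26.7% of all probes. With arrays centred on the 7 genes 0 fell. For 1 of the 5, RAP, the change with flg22 was below that in mock, as for 16.1% of all probes. Of 4 hormone-linked genes, IAGLU and UGT76B1 rose and GRX480 fell (median 0.29), beside the same shares of all probes. The GDSL lipase gene AT3G16370 fell by 1.11 on the log2 scale (SE 0.12; limma adjusted p = 6.48e-08), to levels below all mock arrays.

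Genes of basic cell functions gave mixed counts in small groups. Of 3 translation genes, 3 vacuolar proton pump genes and 2 AAA-type ATPase genes none passed, beside 53.0% of all probes. The translation gene AT3G12390 had a change of -0.35 (SE 0.16; limma adjusted p = 0.0708), which passed as lower in 7 of the alternatives, for example with only the flg22 arrays (limma adjusted p = 0.0096). For 2 of the 3 translation genes the change with flg22 was below that in mock, as for 16.1% of all probes. These were AT2G37190 with a difference of -0.83 (SE 0.27; limma adjusted p = 0.0184) and AT3G12390 with one of -0.70 (SE 0.23; limma adjusted p = 0.0171). Without set 1 neither difference passed (limma adjusted p = 0.249 and 0.0622), nor did that of AT2G37190 without set 3 or that of AT3G12390 without set 2 (limma adjusted p = 0.0702 and 0.0647) or with arrays centred on 7 translation, tubulin and histone genes (limma adjusted p = 0.0951). Of 5 respiratory chain genes 1 passed, AT4G37830, a subunit of cytochrome c oxidase, with a change of -0.32 (SE 0.13; limma adjusted p = 0.0446). It did not pass in 19 of the alternatives, among them median centring (limma adjusted p = 0.118) and the fit without the Col array of flg22 at 3 h of set 3, which gave -0.21 (limma adjusted p = 0.172). Histone H3 genes were lower, AT1G09200 by 0.71 on the log2 scale (SE 0.14; limma adjusted p = 0.00011), AT5G65360 with a change of -0.58 (SE 0.20; limma adjusted p = 0.016) and AT4G40030 with one of -0.37 (SE 0.13; limma adjusted p = 0.0244). The sequences of histone H3 genes are near-identical, so these probes may read one another's transcripts. AT5G65360 did not pass without set 1, set 3 or the mpk11 array of flg22 at 30 min of set 1 (limma adjusted p = 0.132, 0.131 and 0.0528). AT4G40030 did not pass without set 1 or set 3 (limma adjusted p = 0.0821 and 0.14), nor without single arrays of flg22, those of set 2 at 3 h in mpk11 and Col and that of set 3 at 30 min in Col (limma adjusted p = 0.0835, 0.0542 and 0.0604). None of the 3 passed with arrays centred on 7 translation, tubulin and histone genes, a set that holds them (limma adjusted p = 0.0734, 0.146 and 0.726). Of the 5 tubulin, histone and microtubule genes these 3 fell and none rose (median -0.37), where 26.7% of all probes fell.

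**Figure D4:**
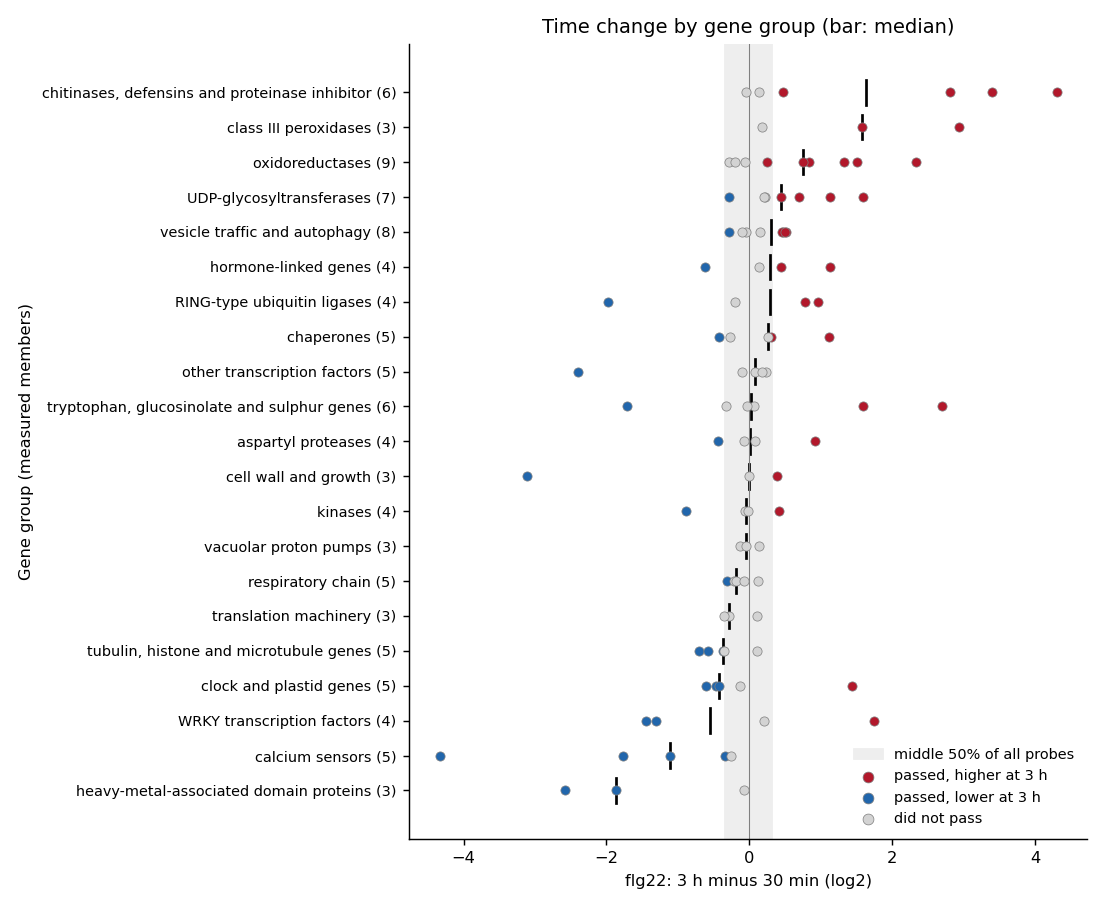
Change with flg22 (3 h minus 30 min, log2) of the measured members of each gene group of at least 3 genes, coloured by whether the member passed in limma as higher or lower, with a bar at the group's median and a shaded band for the middle 50% of all probes. Medians run from 1.64 for chitinases, defensins and proteinase inhibitor down to -1.87 for heavy-metal-associated domain proteins.

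Some genes kept a similar level at both times, and a few of these stood above mock at each. The 95% interval of the change lay within -0.5 to 0.5 for 66 named genes, and the 6 of these with the highest mean distance from mock are described here. AT3G54150 had 4.78, 5.13 and 5.32 with flg22 at 3 h, against 4.36, 5.13 and 5.33 at 30 min, a change of 0.14 (interval -0.13 to 0.41). Its mean distance from mock was 2.57 at 3 h and 2.60 at 30 min, with no overlap of treated and mock arrays at either time. AT2G36950 was above mock by 1.27 at 3 h and by 1.09 at 30 min, and AT1G64710 by 1.27 and 0.95, again without overlap. The rise of AT1G64710 by 0.25 (limma adjusted p = 0.0444) lay inside the bounds and did not pass in 14 of the alternatives, for example without the Col array of flg22 at 30 min of set 1 (limma adjusted p = 0.104). AT2G18680, AT2G23450 and AT4G33540 had changes of -0.04, -0.06 and 0.13 and smaller distances from mock, and their treated arrays overlapped mock at one of the times.

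The change between the times was measured in each genotype. In mpk11, 119 probes (20.7%) were higher at 3 h and 117 (20.3%) lower in limma, 41.0% in all. In Col, 115 (20%) were higher and 128 (22.2%) lower, 42.2% in all. Higher in both were 102 probes (85.7% of the mpk11 and 88.7% of the Col calls), and lower in both were 107 (91.5% and 83.6%). Across the 576 probes the changes in mpk11 and Col had a Pearson correlation of 0.97 and a Spearman correlation of 0.92. The genotypes share no array in these changes. Between any 2 of the 6 single pairs, the correlation over probes was between 0.89 and 0.95. AT2G43620 changed by 4.23 in mpk11 and 4.37 in Col, AT4G27280 by -4.24 and -4.43, and STZ by -2.35 and -2.46.

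The difference between the genotypes was tested directly as mpk11 change minus Col change. In limma 0 probes (0%) passed, the smallest adjusted p was 0.623, and 9 probes had an unadjusted p below 0.05, against 28.8 that chance alone would give. The median half-width of the 95% interval, before adjustment, was 0.53. The smallest unadjusted p among named genes was that of AT4G39670. It changed by -1.48 in mpk11 and by -2.32 in Col, a difference of 0.84 (interval 0.28 to 1.41; limma adjusted p = 0.985). Its level at 30 min was 5.44, 5.74 and 6.20 on the mpk11 arrays, against 6.28, 6.46 and 6.71 on the Col arrays. At 3 h it was 4.08, 4.32 and 4.54 in mpk11, against 4.13, 4.17 and 4.19 in Col. The gene was picked by its p, and these levels enter that p, so a difference between the genotypes at either time was not tested. The next 4 were AT1G62660, a vacuolar invertase, with 0.49 (0.03 to 0.94), IAGLU with 0.39 (-0.02 to 0.80), AT4G33540 with 0.37 (-0.08 to 0.82) and AT4G24290 with 0.32 (-0.09 to 0.73), none of which passed after adjustment.

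**Figure D5:**
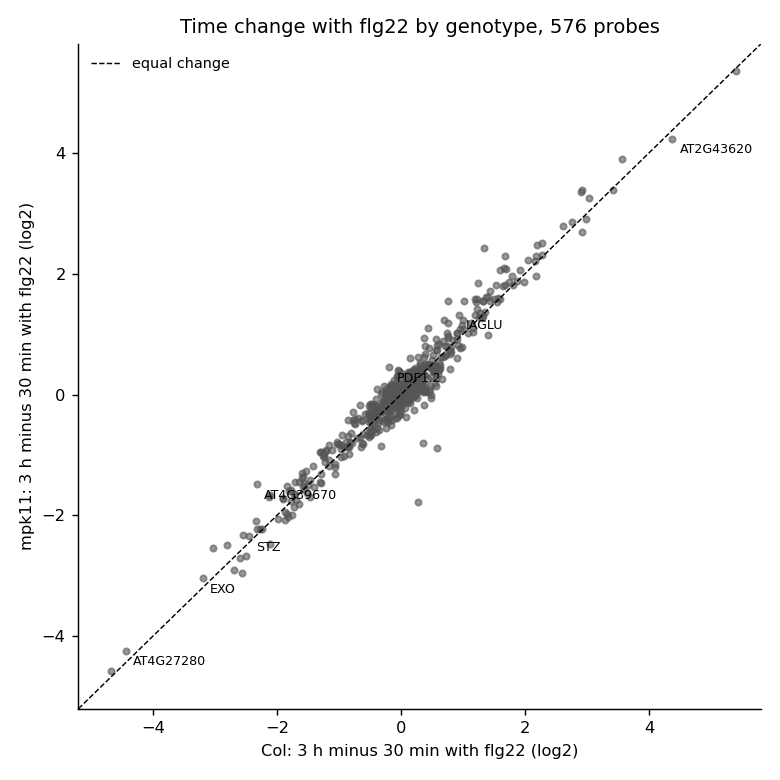
Change with flg22 (3 h minus 30 min, log2) in mpk11 (vertical) against that in Col (horizontal) for 576 probes, with a dashed line of equal change. The points follow the line (Pearson correlation 0.97), and no probe's difference between the genotypes passed in limma.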

How the data were processed

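Leaf RNA of Arabidopsis seedlings carried 1 dye (Alexa555) and was hybridised to spotted arrays, per the labels' protocols, which also name a Cy5 oligonucleotide for finding bad spots. The authors deposited log values (0.450 to 11.4), called log2 here for their range. Log base, scanner, background correction and normalization were not stated in the sources used here. Differences are subtractions of these values, and no probe's level was set against another's. Probes were named from the platform annotation (181 with 1 gene, 0 with several, 395 without), and 180 genes were matched to RefSeq names of TAIR10.1. No coordinates or sequences are printed, since no build or sequence table was used here, and the planned promoter motif count was not run.

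Groups came from the labels. limma 3.58.1 in R 4.3.3 was fitted once over all 24 arrays with 8 group means of 3 arrays, moderated by empirical Bayes (5.39 prior and 16 residual degrees of freedom) and Benjamini-Hochberg adjustment over 576 probes (threshold 0.05). The mean of the Col and mpk11 changes equals that of the 6 differences within genotype and set. No value was missing, and no filter was used.

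The comparison, the gene lists and the naming rule were chosen with earlier results of these data known. Named were the 14 genes that rose and the 14 that fell most with all 6 differences in that direction, the 5 genes with the smallest p for the genotype difference, the 5 largest differences from mock each way, 6 steady genes and up to 4 members per list with the smallest p. Further list members, named to complete a count, were chosen after their values were seen. The lists planned by name patterns held few measured genes, so members were listed by known function once the probe names were known.

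Same-numbered arrays of flg22 at 3 h and 30 min deviated together in 3 of 6 pairs (correlation of deviations over 0.1, range 0.02 to 0.41), and 5 of 12 arrays correlated best with their own number. The main limma test therefore left set numbers out, and they entered a fit only as an alternative. The 6 differences were still formed by set number, and their common sign was required of the 28 genes that rose or fell most. Alternatives were 3 scalings, leaving out the dimmest 0.25 of probes (432 kept), a trended and robust prior, a replicate block by set number, fixed or random, a fit on the flg22 arrays alone, and leaving out each array or set.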

Additional observations from a re-analysis of the deposited data

How the results depend on the processing

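No probe passed for the genotype difference of the change under any alternative. Higher and lower calls for the flg22 change lay between 137 and 156 and between 144 and 158 without 1 array, and between 122 and 134 and between 120 and 141 without 1 set. A replicate block by set number gave 162 and 166 (mpk11 132 and 136, Col 131 and 137, mock 30 and 116, flg22 minus mock 147 and 107). The samples share only a number, so that fit is no paired test, and with the random replicate block the estimated correlation was 0.25. Centring on 7 translation, tubulin and histone genes gave 88 lower calls for flg22, 64 in mpk11 and 74 in Col, 49 higher and 18 lower in mock, and 78 larger differences from mock. Mock calls were also 40 higher and 57 lower after median centring and 47 higher after quantile normalization, and without 1 array or set between 10 and 25 higher and between 48 and 99 lower, the lowest without set 3. Of the 113 named genes or list members followed, 65 passed, and 42 of these kept their call in every one of 36 alternatives. The mock changes of AT2G41410 and IAGLU turned to 0.0039 and 0.023 when centred on the 7 genes, and 469 of 13832 followed values had another call. Where no cause is named above, the cause was not tested. Probe signal over background is not known here, so dim probes could not be judged by it.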

Other observations

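Among the 15 probes that rose most with flg22 9 are unnamed here, and among the 15 that fell most 11 are. The largest rise of all, 5.38 (SE 0.15), and the largest fall, -4.62 (SE 0.20), belonged to probes p160 and p552, chosen after their values were seen. Probe p160 had 7.30, 7.58 and 8.09 with flg22 at 3 h (lowest, median and highest of 6 arrays), against 2.14, 2.22 and 2.43 at 30 min, and its mock levels stayed between 1.69 and 2.64. Probe p552 had 4.03, 4.08 and 4.25 at 3 h, against 8.39, 8.70 and 9.09 at 30 min. Probe p211 changed by 3.73 with flg22 and by 3.30 in mock.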
